A study of Homo sapiens with 12 samples.

Results

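The mRNA of 10 circadian clock genes was followed in A375 cells, an established human melanoma line. The 10 were taken by symbol from a list of clock genes with no measured value used, though earlier results of these data were known. They are ARNTL, CLOCK, CRY1, CRY2, CIART, BHLHE40, BHLHE41, CSNK1D, CSNK1E and DBP, 10 of the 4918 genes analysed here. The genes run alphabetically from A1BG to FAM46B, so clock genes later in the alphabet, such as the PER, NR1D and ROR families, were not analysed here. RNA was sequenced from 12 samples, 3 in each of 4 groups. Control cells are labelled as having no treatment, although the treatment protocol names a vehicle. The other groups received SB-3CT, a small-molecule inhibitor of the gelatinases MMP2 and MMP9, or the cytokine interferon gamma (IFN-γ), or both (SB-3CT+IFN-γ), and all were collected after 24 h. The doses used for these libraries and any synchronisation of the cells are not given in the sources used here, and with 1 time point the values hold no rhythm. A legend of the study states that experiments were independently repeated, but the labels do not say that the 3 samples of a group came from separate cultures, so p-values measure the spread between these samples, which may be technical. In bulk RNA, a lower level in every cell and fewer cells with the transcript cannot be told apart.

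In human cells the circadian clock is a feedback loop of transcription. The proteins CLOCK and BMAL1 (encoded by ARNTL) bind E-box sequences as a pair and switch on the genes of their own repressors, among them the cryptochromes CRY1 and CRY2, CIART, BHLHE40 and BHLHE41. The casein kinases CSNK1D and CSNK1E set the speed of the loop by phosphorylating PER proteins, and output factors such as DBP carry the rhythm to other genes. Skin and melanoma cells hold such a clock, and cells of a culture drift out of phase unless they are synchronised.

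Levels are in FPKM (sequenced fragments relative to transcript length and to all fragments mapped in that sample), so they can be compared between genes. Changes are differences of group means of log2(FPKM + 1), a scale on which genes near 1 FPKM or below appear to change less than they do. They were tested with limma, a linear model that shares its estimate of the spread across genes, and p-values were adjusted over all 4918 genes by the Benjamini-Hochberg method. A gene is said to have risen or fallen where the adjusted p-value was under 0.05. For single genes an exact two-sided permutation test was run beside it, which cannot give a p-value under 0.1 with 3 samples against 3. The number of reads per sample is not stated, but the size of the steps between the lowest values showed that the samples held 87.1% to 150.2% of the mean depth of the controls. CXCL10 and CD274, both induced by IFN-γ, had means of 0.0167 and 0.543 FPKM in control cells and of 81.7 and 21.7 FPKM with IFN-γ. Markers of T cells, epithelial cells, fibroblasts and endothelial cells (8 genes in the table) were at or below 0.231 FPKM in every sample. Of 6 genes listed as markers of melanoma and melanocytes, CD63, CSPG4 and EDNRB were at 4.0 FPKM or more in every sample. The other listed genes, DCT, CAPN3 and BIRC7, stayed at or below 0.567 FPKM. Of 3 genes listed for undifferentiated melanoma, AXL was at 39.9 FPKM or more, CDH2 at 6.67 FPKM or more and EGFR at 0.914 to 2.24 FPKM.

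The 10 genes covered a wide range of levels. In control cells the kinases were the highest, CSNK1D at 33.7 ± 1.78 FPKM (SD, n = 3) and CSNK1E at 31.7 ± 2.13 FPKM, and their samples overlapped. They were followed by BHLHE40 (7.84 ± 0.563 FPKM), CRY1 (4.98 ± 0.170 FPKM) and DBP (3.09 ± 0.233 FPKM), with no overlap between neighbours in this order. ARNTL (2.10 ± 0.181 FPKM) and CLOCK (1.97 ± 0.0721 FPKM), whose products work as a pair, overlapped with each other and lay above CRY2 (1.55 ± 0.190 FPKM). BHLHE41 (0.611 ± 0.0291 FPKM) and CIART (0.0577 ± 0.0669 FPKM) averaged below 1 FPKM over all samples, as the other 8 did not, and CIART was listed at 0 in 2 of the 12 samples.

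**Figure D1:**
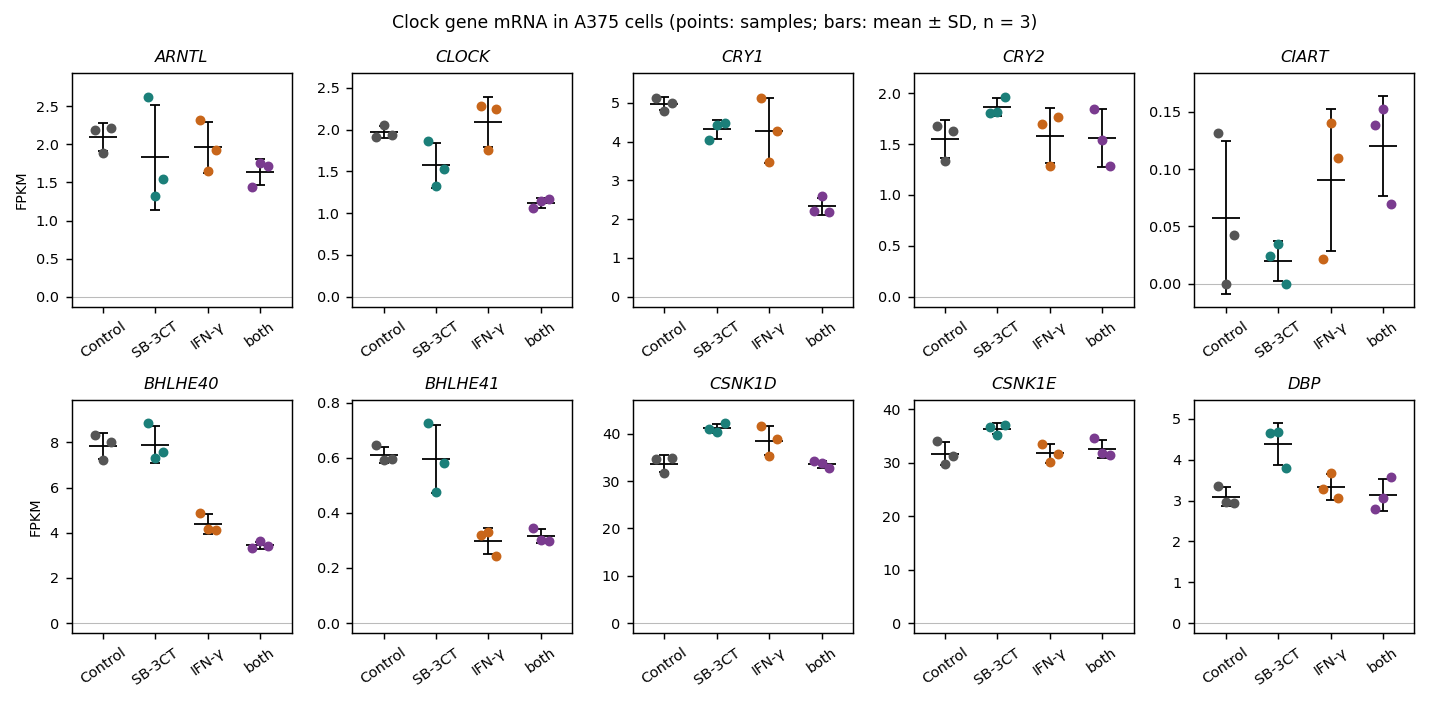
FPKM (y axis, linear, each gene on its own scale) of the 10 clock genes in the 4 groups (x axis, "both" being SB-3CT+IFN-γ), with a point for each sample and bars for the mean ± SD of 3 samples. The 6 samples with IFN-γ lie below the 6 without it for BHLHE40 and BHLHE41, and the 3 SB-3CT+IFN-γ samples lie below the other 9 for CRY1 and CLOCK.

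IFN-γ alone was compared with control cells to see how the clock genes responded to the cytokine. Of the 10 genes, 2 fell and 0 rose, where 19.5% of all 4918 genes passed the test in either direction. Both were repressors of the same family, BHLHE40 (DEC1) and BHLHE41 (DEC2), helix-loop-helix proteins that bind E-boxes and oppose CLOCK and BMAL1. At an unadjusted p under 0.05, 3 of the 10 passed, beside 1630 of all 4918 genes. The median change of the 10 was 0.01, beside -0.02 over all genes.

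BHLHE40 lies on the plus strand of chromosome 3 (hg19, chr3:5021122-5027008). It was at 8.31, 7.22 and 8.0 FPKM in the control samples and at 4.89, 4.18 and 4.11 FPKM with IFN-γ. All 3 IFN-γ samples were lower than all 3 controls, and the IFN-γ mean was 0.560 of the control mean. The change was -0.71 on the log2 scale (SE 0.09, limma adjusted p = 0.00282), and of the 3177 genes with a mean of at least 1 FPKM only 1.2% had a lower value. BHLHE41 (hg19, chr12:26272963-26277970, minus strand) was at 0.645, 0.593 and 0.596 FPKM in control cells and at 0.319, 0.330 and 0.242 FPKM with IFN-γ. The groups did not overlap, the IFN-γ mean was 0.487 of the control mean, and the change was -0.31 (SE 0.04, limma adjusted p = 0.00352). Both changes kept an adjusted p-value under 0.05 in every alternative fit that could be run for them, while a rule that asked for a fold over 1.5 on this scale was met by BHLHE40 only. BHLHE41 averaged under 1 FPKM and has no value under the filter on low values. An antisense gene, BHLHE40-AS1, overlaps BHLHE40, and its mean was at most 0.0320 FPKM in any group. SSPN overlaps BHLHE41 on the opposite strand and was not analysed here. Whether strand was used in counting is not given in the sources used here.

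The promoters of both genes are shown because these 2 genes moved together, with the 250 bases before the transcription start as RefSeq gives them on GRCh38.p14, written 5′ to 3′ on the strand of the gene. Capitals mark E-boxes (CACGTG), the site that CLOCK and BMAL1 bind.
BHLHE40 promoter, chr3:4979187-4979436, plus strand: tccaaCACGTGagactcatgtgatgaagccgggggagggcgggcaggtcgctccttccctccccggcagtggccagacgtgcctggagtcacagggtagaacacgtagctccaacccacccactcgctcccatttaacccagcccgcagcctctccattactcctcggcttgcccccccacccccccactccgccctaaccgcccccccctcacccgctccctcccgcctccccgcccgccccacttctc
BHLHE41 promoter, chr12:26125038-26125287, minus strand: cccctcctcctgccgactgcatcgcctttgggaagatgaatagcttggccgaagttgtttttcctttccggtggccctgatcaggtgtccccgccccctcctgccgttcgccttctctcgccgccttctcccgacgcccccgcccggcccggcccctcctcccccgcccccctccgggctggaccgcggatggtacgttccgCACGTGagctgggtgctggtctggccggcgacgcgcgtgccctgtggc
The E-box of BHLHE40 starts at -245 relative to the transcription start, and that of BHLHE41 at -48. Over all 35116 RefSeq windows of 300 bases (250 before and 50 after the start), 7.26% held an E-box.

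The other repressors did not pass the test with IFN-γ. CRY1 was at 5.14, 4.80 and 5.0 FPKM in control cells and at 5.13, 3.47 and 4.29 FPKM with IFN-γ. The IFN-γ samples spread more widely, 1 of them within the range of the controls, and the change was -0.19 (SE 0.12, limma adjusted p = 0.349). CRY2 changed by 0.02 (SE 0.10, limma adjusted p = 0.950) and CIART by 0.04 (SE 0.06, limma adjusted p = 0.670). Among the activators, ARNTL changed by -0.07 (SE 0.10) and CLOCK by 0.05 (SE 0.09), with adjusted p-values of 0.705 and 0.734 in limma.

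Of the kinases, CSNK1D was at 34.6, 31.7 and 34.9 FPKM in control cells and at 41.6, 35.3 and 38.9 FPKM with IFN-γ. The groups did not overlap, but the change of 0.19 (SE 0.07) had an adjusted p-value of 0.124 in limma. After median-ratio scaling, which sets the samples to a common level by their typical gene, it was 0.23 with an adjusted p-value of 0.0156. CSNK1E, its close paralog, had means of 31.7 and 31.8 FPKM. DBP, the output factor, had means of 3.09 and 3.33 FPKM (change 0.08, SE 0.08, limma adjusted p = 0.561).

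SB-3CT alone was compared with the same control samples to see how the clock genes responded to the inhibitor without the cytokine. Here 2 of the 10 genes rose and 0 fell, where 12.2% of all genes passed the test in either direction. At an unadjusted p under 0.05, 4 of the 10 passed, beside 1478 of all 4918 genes. The 2 genes that rose were the kinase CSNK1D and the output factor DBP. BHLHE40 and BHLHE41 stayed near their control means, at 7.90 and 0.594 FPKM.

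CSNK1D (hg19, chr17:80196899-80231576, minus strand) encodes casein kinase 1 delta, which marks PER proteins for degradation. It was at 41.1, 40.3 and 42.2 FPKM with SB-3CT, all above the 3 controls (31.7 to 34.9 FPKM). The change was 0.28 (SE 0.05, limma adjusted p = 0.0183), and 94.2% of the genes with a mean of at least 1 FPKM had a lower value. DBP (hg19, chr19:49133287-49140636, minus strand) encodes a D-box binding activator that is a direct target of CLOCK and BMAL1. It was at 3.36, 2.96 and 2.95 FPKM in control cells and at 4.66, 4.68 and 3.80 FPKM with SB-3CT. The groups did not overlap, and the change was 0.39 (SE 0.10, limma adjusted p = 0.0421), with 97.8% of those genes lower. On the opposite strand, SLC16A3 overlaps CSNK1D and SPHK2 overlaps DBP, and neither was analysed here.

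Neither call held throughout when samples were left out in turn. With 1 sample left out, DBP passed in 0 of 6 fits, with adjusted p-values of 0.0681 to 0.140. CSNK1D passed in 1 of 6, without SB-3CT replicate 1, and the others gave up to 0.0878. Without SB-3CT replicate 1, ARNTL (-0.35, limma adjusted p = 0.0493) and CLOCK (-0.29, limma adjusted p = 0.0463) also passed. ARNTL was at 2.62 FPKM in that sample and at 1.32 and 1.54 FPKM in the other SB-3CT samples, against 2.19, 1.89 and 2.21 FPKM in control cells.

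In 4 further genes the SB-3CT and control samples did not overlap without a call at the adjusted threshold. With the 2 called genes, 6 of the 10 were apart in this way, beside 1669 of all 4918 genes. CSNK1E was at 36.8, 35.3 and 37.1 FPKM with SB-3CT and at 34.0, 29.8 and 31.3 FPKM in control cells (change 0.19, SE 0.06, limma adjusted p = 0.0646). TPTEP2-CSNK1E overlaps CSNK1E on the same strand and was not analysed here. CRY2 had a mean of 1.86 ± 0.0879 FPKM with SB-3CT, against 1.55 ± 0.190 FPKM in control cells (change 0.17, SE 0.08, limma adjusted p = 0.225). CRY1 and CLOCK were lower by mean, at 4.32 and 1.57 FPKM against 4.98 and 1.97 FPKM. Their changes were -0.17 (SE 0.07) and -0.21 (SE 0.09), with adjusted p-values of 0.166 and 0.184 in limma.

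**Figure D2:**
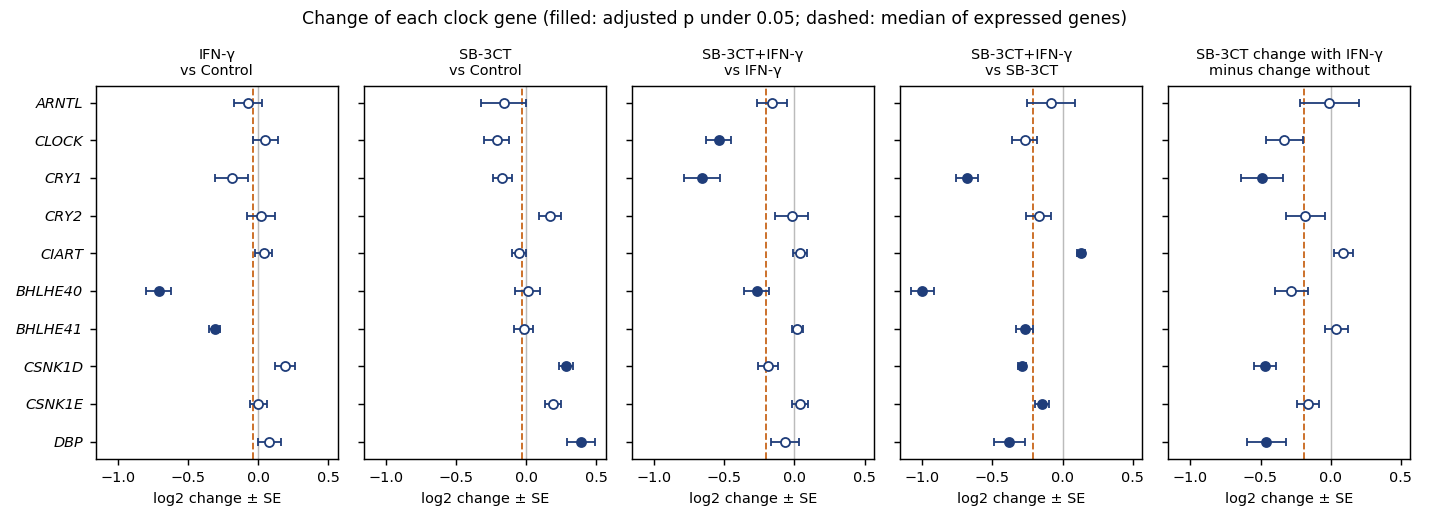
Change of each clock gene (y axis) on the log2(FPKM + 1) scale with its standard error (x axis) in the 4 comparisons of groups and in the difference of the SB-3CT changes, with filled points for an adjusted p-value under 0.05 in limma, a grey line at 0 and a dashed line at the median of genes with a mean of at least 1 FPKM. BHLHE40 has the largest change in both IFN-γ comparisons (-0.71 and -1.0), and CRY1 is lowest where SB-3CT was added to IFN-γ (-0.66).

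SB-3CT was added to IFN-γ to see whether the inhibitor alters the response to the cytokine, and here the scaling of the samples bears on every value. The median change of genes with a mean of at least 1 FPKM was -0.20 against IFN-γ and -0.21 against SB-3CT on the deposited scale, and 0.00 in both after median-ratio scaling. The median-ratio factors were 0.867 to 0.882 in the SB-3CT+IFN-γ samples and 0.986 to 1.084 in the other 9. The summed FPKM of the 4918 genes was 128299 to 129692 in those 3 samples and 121928 to 126550 elsewhere. Of all 4918 genes, 315 rose and 1547 fell against IFN-γ on the deposited scale, and 763 rose and 811 fell after median-ratio scaling. Against SB-3CT the counts were 386 and 1608, and 657 and 547 after that scaling. Changes that involve this group are therefore also given relative to the median, or under other scalings. The comparisons with IFN-γ and with SB-3CT share the 3 SB-3CT+IFN-γ samples.

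Against IFN-γ alone, 3 of the 10 genes fell and 0 rose, where 37.9% of all genes passed the test in either direction. The median change of the 10 was -0.12, beside -0.09 over all genes and -0.20 for genes with a mean of at least 1 FPKM. The 3 genes that fell were the activator CLOCK and the repressors CRY1 and BHLHE40. CRY1 (hg19, chr12:107385142-107487327, minus strand), a cryptochrome that binds and blocks CLOCK and BMAL1, was at 2.22, 2.59 and 2.19 FPKM with both agents and at 5.13, 3.47 and 4.29 FPKM with IFN-γ. The groups did not overlap, the mean with both agents was 0.543 of that with IFN-γ, and the change was -0.66 (SE 0.13, limma adjusted p = 0.00689). Relative to the median it was -0.46, and 5.98% of the genes with a mean of at least 1 FPKM were lower still. CRY1 passed the test in all 14 alternative fits, at changes between -0.84 and -0.37.

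CLOCK (hg19, chr4:56294070-56413076, minus strand), the partner of BMAL1, was at 1.06, 1.14 and 1.17 FPKM with both agents and at 2.28, 1.75 and 2.24 FPKM with IFN-γ. All 3 samples with both agents were lower, and the change was -0.54 (SE 0.09, limma adjusted p = 0.00446), or -0.34 relative to the median. It too passed in all 14 alternative fits (-0.83 to -0.26). Its mean with both agents was 0.537 of that with IFN-γ, close to the 0.543 of CRY1. On the log2(FPKM + 1) scale, which shrinks changes at such low levels, its change was under the fold of 1.5, which CRY1 exceeded. Its canonical transcript of 10470 bases is long, and once the dependence on transcript length had been taken out of every sample the change was -0.26 (limma adjusted p = 0.0391), the smallest of the 14 in size. TMEM165 overlaps CLOCK on the opposite strand and was not analysed here.

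BHLHE40 had a mean of 3.45 ± 0.159 FPKM with both agents and 4.39 ± 0.431 FPKM with IFN-γ. Its change of -0.27 (SE 0.09, limma adjusted p = 0.0456) was lost after median-ratio scaling (-0.08, adjusted p = 0.426) and turned to 0.03 (adjusted p = 0.819) after quantile normalization. ARNTL, which pairs with CLOCK, had means of 1.64 and 1.96 FPKM (change -0.16, SE 0.11, limma adjusted p = 0.278, and 0.03 relative to the median). CRY2 had means of 1.56 and 1.58 FPKM, a change of -0.02 (SE 0.12) that was between 0.13 and 0.25 under the 3 other scalings, none of them past the threshold. CSNK1E changed by 0.04 (limma adjusted p = 0.688) on the deposited scale and passed as a rise after median-ratio scaling (0.27, adjusted p = 0.00642) and with the length trend removed (0.25, adjusted p = 0.0152). CSNK1D (-0.19) and DBP (-0.07) did not pass on the deposited scale and were 0.04 and 0.12 after median-ratio scaling. BHLHE41 (0.02, SE 0.04) and CIART (0.04, SE 0.05) did not pass under any of the alternatives.

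The promoters of CLOCK and CRY1, which fell together, are shown over the 250 bases before a transcription start, as for the genes above. CLOCK has 2 starts in RefSeq, and the one with a motif is shown. Capitals mark E-prime boxes (CACGTT on either strand), a variant of the E-box at which CLOCK and BMAL1 also bind.
CLOCK promoter, chr4:55545933-55546182, minus strand: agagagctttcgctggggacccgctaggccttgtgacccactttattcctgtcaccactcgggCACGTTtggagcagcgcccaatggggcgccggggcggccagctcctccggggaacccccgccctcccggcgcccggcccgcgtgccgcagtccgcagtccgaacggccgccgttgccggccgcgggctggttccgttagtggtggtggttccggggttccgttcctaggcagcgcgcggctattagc
CRY1 promoter, chr12:107093550-107093799, minus strand: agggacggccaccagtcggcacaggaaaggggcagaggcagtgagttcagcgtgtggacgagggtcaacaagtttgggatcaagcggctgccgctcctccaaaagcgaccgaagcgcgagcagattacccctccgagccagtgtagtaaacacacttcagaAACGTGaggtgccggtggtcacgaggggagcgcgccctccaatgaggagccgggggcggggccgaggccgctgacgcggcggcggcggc
The E-prime boxes start at -187 in CLOCK and at -89 in CRY1, and 5.34% of all windows held one.

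Against SB-3CT alone, which gives the response to IFN-γ in cells that also received the inhibitor, 7 of the 10 genes passed, 6 lower and 1 higher, where 40.5% of all genes passed in either direction. After median-ratio scaling 3 were lower and 1 higher, where 1204 of all 4918 genes passed, 547 lower and 657 higher. The median change of the 10 was -0.27, beside -0.11 over all genes and -0.21 for genes with a mean of at least 1 FPKM.

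BHLHE40 fell most, from 8.84, 7.29 and 7.56 FPKM with SB-3CT to 3.31, 3.62 and 3.43 FPKM with both agents. The 3 lower samples lay far from the others, and the mean was 0.437 of that with SB-3CT. The change was -1.0 (SE 0.08, limma adjusted p = 0.000591), or -0.78 relative to the median, and 0.378% of the genes with a mean of at least 1 FPKM were lower. CRY1 fell from 4.05, 4.44 and 4.48 FPKM (change -0.68, SE 0.08, limma adjusted p = 0.00165, -0.46 relative to the median). Both held in all 14 alternative fits and under the fold rule. BHLHE41 was at 0.724, 0.476 and 0.582 FPKM with SB-3CT and at 0.345, 0.303 and 0.297 FPKM with both agents, which do not overlap (change -0.27, SE 0.06, limma adjusted p = 0.0146, -0.06 relative to the median). That median comes from genes at 1 FPKM or more, and after median-ratio scaling the change of BHLHE41 was -0.20 (limma adjusted p = 0.0409). BHLHE41 passed in 11 of 13 alternatives, the highest adjusted p being 0.0545.

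The kinases and DBP also passed on the deposited scale. CSNK1D went from 41.2 ± 0.946 to 33.6 ± 0.719 FPKM (change -0.29, SE 0.03, limma adjusted p = 0.00189), which was -0.07 relative to the median and -0.04 (adjusted p = 0.475) after median-ratio scaling. CSNK1E changed by -0.15 (SE 0.05, limma adjusted p = 0.0435) and by 0.09 after median-ratio scaling, so that its direction turned. DBP changed by -0.38 (SE 0.11, limma adjusted p = 0.0325), -0.17 relative to the median, and -0.18 (adjusted p = 0.275) after median-ratio scaling. The remaining 3 genes did not pass. CLOCK came closest (-0.27, SE 0.09, limma adjusted p = 0.0530), with 1.86, 1.32 and 1.53 FPKM under SB-3CT, all above the 3 samples with both agents. Relative to the median the change of CLOCK was -0.06, and after median-ratio scaling it was -0.13 (limma adjusted p = 0.293). CRY2 changed by -0.17 (SE 0.09, 0.05 relative to the median, and -0.01 after median-ratio scaling) and ARNTL by -0.08 (SE 0.17, and 0.08 after median-ratio scaling).

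The 1 gene that rose was CIART (hg19, chr1:150254953-150259505, plus strand), a repressor of CLOCK and BMAL1 also known as CHRONO. It was listed at 0.0245, 0.0344 and 0 FPKM with SB-3CT and at 0.138, 0.152 and 0.0699 FPKM with both agents. The groups did not overlap, but no value was above 0.152 FPKM in any group, and no fold is given against a sample at 0. The change was 0.13 (SE 0.03, limma adjusted p = 0.0208), and it passed in 7 of 13 alternatives. Its promoter is shown because it held 3 E-boxes, more than that of any other of the 9 clock genes with a RefSeq window.
CIART promoter, chr1:150282304-150282553, plus strand: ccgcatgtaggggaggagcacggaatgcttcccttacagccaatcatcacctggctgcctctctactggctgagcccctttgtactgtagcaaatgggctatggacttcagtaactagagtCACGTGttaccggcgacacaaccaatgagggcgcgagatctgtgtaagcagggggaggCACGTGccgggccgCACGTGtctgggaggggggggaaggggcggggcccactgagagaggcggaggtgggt
The E-boxes, in capitals, start at -129, -71 and -57.

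Of the 9 clock genes with a window, 3 held an E-box and 4 others an E-prime box (CLOCK, CRY1, CRY2 and CSNK1E) in at least one of the 13 windows. ARNTL held the ROR element (as AAAGTAGGTCA), where ROR and NR1D proteins bind, at 27 relative to the transcription start in one of its windows, as 0.07% of all windows did. The D-box (TTATGTAA, TTACGTAA or TTATGCAA) and the CRE (TGACGTCA), held by 1.84% and 1.85% of all windows, were not found in any of the 13. These motifs were searched on both strands, no match of one overlapped a match of another, and a match shows letters, not binding.

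Whether SB-3CT acted differently once IFN-γ was present was tested as an interaction over all 12 samples, as the SB-3CT change with the cytokine minus that without it. It passed in 3 of the 10 genes, all negative, where 22.3% of all genes passed in either direction. The median over genes with a mean of at least 1 FPKM was -0.19, and -0.02 after median-ratio scaling, which took the genes with a positive and a negative difference from 233 and 866 to 382 and 275. CSNK1D rose with SB-3CT alone (0.28) and changed by -0.19 where IFN-γ was present, a difference of -0.47 (SE 0.08, limma adjusted p = 0.00559), or -0.28 relative to the median. It held in all 18 alternative fits, at -0.53 to -0.23. DBP changed by 0.39 and -0.07, a difference of -0.46 (SE 0.14, limma adjusted p = 0.0350), and CRY1 by -0.17 and -0.66, a difference of -0.49 (SE 0.15, limma adjusted p = 0.0361). After median-ratio scaling DBP gave -0.30 (adjusted p = 0.210) and CRY1 -0.34 (adjusted p = 0.108). The difference for CLOCK was -0.33 (SE 0.13, limma adjusted p = 0.0916) and for BHLHE40 -0.28 (SE 0.12, limma adjusted p = 0.121), so neither change with SB-3CT was shown to depend on IFN-γ.

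**Figure D3:**
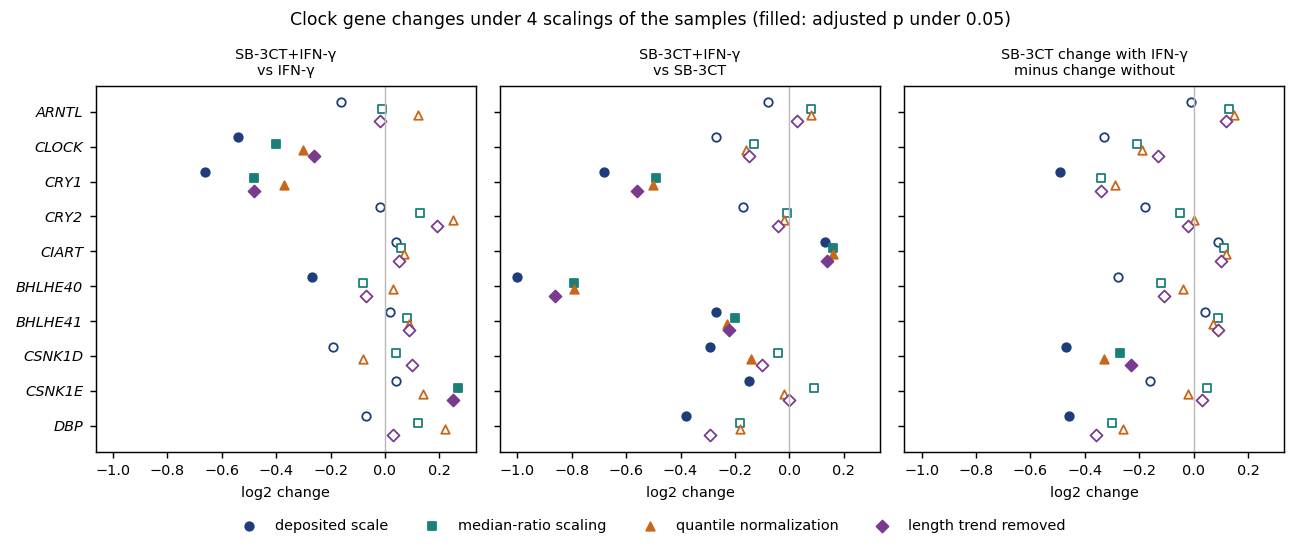
Change of each clock gene (y axis) on the log2 scale (x axis) in the 2 comparisons of SB-3CT+IFN-γ and in the difference of the SB-3CT changes, on the deposited scale and under 3 other scalings, with filled symbols for an adjusted p-value under 0.05 in limma. CRY1 stays negative under all 4 in each panel, while CSNK1E lies between -0.15 and 0.09 against SB-3CT.

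The ratio of 2 genes within a sample is not altered by a factor applied to the whole sample, as in median-ratio scaling, although quantile normalization and the length correction can alter it, and the partners and paralogs among the clock genes were also set against each other. The 4 ratios were chosen after the values had been seen, and their 16 tests share samples. CRY1 exceeded CRY2 by a geometric mean of 3.23 times in control cells, 2.33 times with SB-3CT, 2.71 times with IFN-γ and 1.51 times with both. On the log2 scale the ratio was 1.61, 1.85 and 1.62 in the controls and 0.27, 0.74 and 0.77 with both agents. It did not overlap between the groups in any of the 4 comparisons (exact two-sided permutation test, p = 0.1 in each, the smallest that 3 against 3 can give, and 0.145 after Benjamini-Hochberg adjustment over 16 tests).

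ARNTL and CLOCK were near equal in control cells (1.06 times by geometric mean) and with IFN-γ (0.937 times), while ARNTL was 1.45 times CLOCK with both agents. The log2 ratio with both agents (0.45, 0.62 and 0.56) lay above that with IFN-γ (0.02, -0.08 and -0.22), and overlapped with that of SB-3CT, where 1 sample was at 0.49. The ratio of CSNK1D to CSNK1E was 1.06 times in control cells, 1.13 with SB-3CT, 1.21 with IFN-γ and 1.03 with both. The groups were apart in all 4 comparisons (exact two-sided permutation test, p = 0.1 in each, and 0.145 after adjustment over 16 tests). The separation from the controls was slight with SB-3CT, where the nearest samples of both groups were at 0.16 on the log2 scale. How often other pairs of genes lie apart in this way was not tested. BHLHE40 and BHLHE41 fell together with IFN-γ, their ratio being 12.8 times in control cells and 14.9 times with IFN-γ, with overlapping samples.

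**Figure D4:**
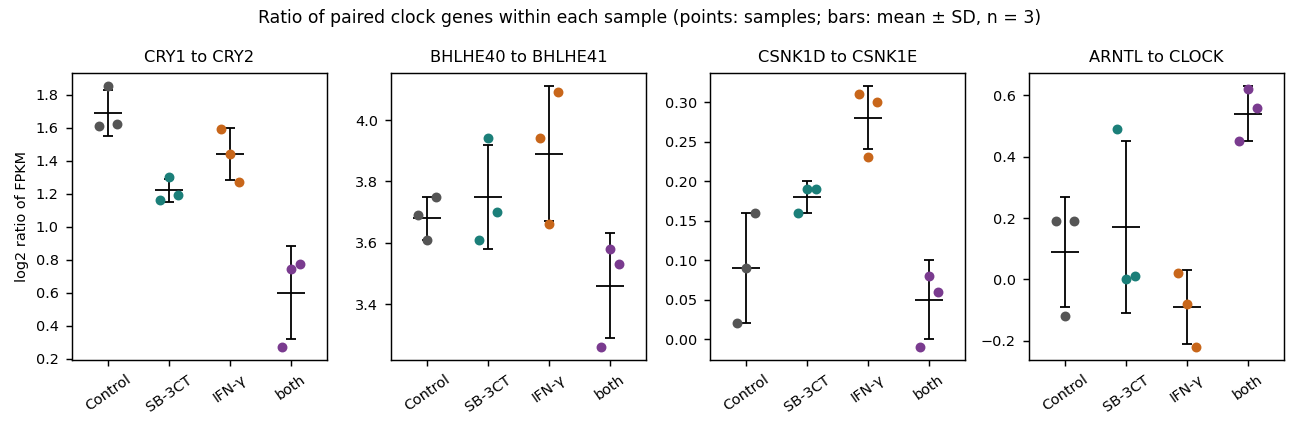
Log2 ratio of FPKM (y axis, each pair on its own scale) within each sample for 4 pairs of clock genes in the 4 groups (x axis, "both" being SB-3CT+IFN-γ), with points for samples and bars for the mean ± SD of 3. The CRY1 to CRY2 ratio is highest in the controls (mean 1.69) and lowest with both agents (mean 0.60).

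BHLHE40 and CRY1 had the widest ranges of group means among the clock genes at 1 FPKM or more. Over the 12 samples and among 3176 other genes at that level, the values most like those of BHLHE40 were those of FAM212B, ANO1 and EGR3 (Pearson r of 0.98 for each). EGR3, an immediate-early transcription factor, had means of 2.20, 2.38, 1.17 and 0.849 FPKM in control, SB-3CT, IFN-γ and SB-3CT+IFN-γ. The values most like those of CRY1 were those of CDC23 (r of 0.98), BLMH and FAM222A (r of 0.97 for each). These r values describe 12 samples in 4 groups, so they follow mainly the group means.

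A list of 19 other genes that act on the clock, from kinases and ubiquitin ligases to chromatin factors, was read beside the 10. With IFN-γ, 1 of the 19 rose and 1 fell, where 19.5% of all genes passed. ARNTL2, a paralog of ARNTL that also pairs with CLOCK, rose from 1.46 to 3.75 FPKM (change 0.95, SE 0.10, limma adjusted p = 0.00173). CDK5, a kinase that phosphorylates CLOCK and is named here because it made up the count, fell from 59.8 to 48.5 FPKM (-0.29, SE 0.05, limma adjusted p = 0.0117). With SB-3CT alone, 12.2% of all genes passed (546 of the 3177 with a mean of at least 1 FPKM). Of the 19, 2 rose, EGR1 (0.56) and DDB1 (0.23), and 2 fell, the RNA helicases DDX5 (-0.26) and DHX9 (-0.29). All 6 of these changes kept their direction and their call under the 3 other scalings. With 1 sample left out of the SB-3CT comparison, between 0 and 7 of the 19 passed, the 7 being without SB-3CT replicate 1.

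Against IFN-γ, 13 of the 19 fell and 1 rose with both agents, where 37.9% of all genes passed (1651 of the 3177 with a mean of at least 1 FPKM), and their median change was -0.41, beside -0.20 for genes with a mean of at least 1 FPKM. The falls included DHX9 (-0.74), EZH2 (-0.61), a histone methyltransferase, and DDX5 (-0.57), which passed under all 3 other scalings as well. ARNTL2 also fell (-0.49), but did not pass after quantile normalization (-0.21, adjusted p = 0.128) or with the length trend removed (-0.18, adjusted p = 0.198). CDK5 was the gene that rose (0.17, limma adjusted p = 0.0469), and it did not pass with the length trend removed (0.06, adjusted p = 0.386). In all, 10 of the 19 passed after median-ratio scaling and 6 with the length trend removed, where 1574 and 957 of all genes passed. Against SB-3CT, 40.5% of all genes passed (1727 of the 3177 with a mean of at least 1 FPKM). Of the 19, 11 fell and 1, ARNTL2, rose (0.71, SE 0.10, limma adjusted p = 0.00352). DDB1, an adaptor of the ubiquitin ligase that degrades CRY1, had the largest fall (-0.61, SE 0.05, limma adjusted p = 0.000680). After median-ratio scaling 5 of the 19 passed against SB-3CT, where 1204 of all genes passed. The difference of the SB-3CT changes passed in 9 of the 19, all negative, where 22.3% of all genes passed (1025 of the 3177 with a mean of at least 1 FPKM). It passed in 2 of the 19 after median-ratio scaling, where 657 of all genes passed. CSNK2B, a kinase subunit that every cell uses, was listed at 0 in 6 of the 12 samples. These were all 3 SB-3CT samples, 1 control and 2 SB-3CT+IFN-γ samples, and the other 6 were at 0.453 to 0.650 FPKM.

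**Figure D5:**
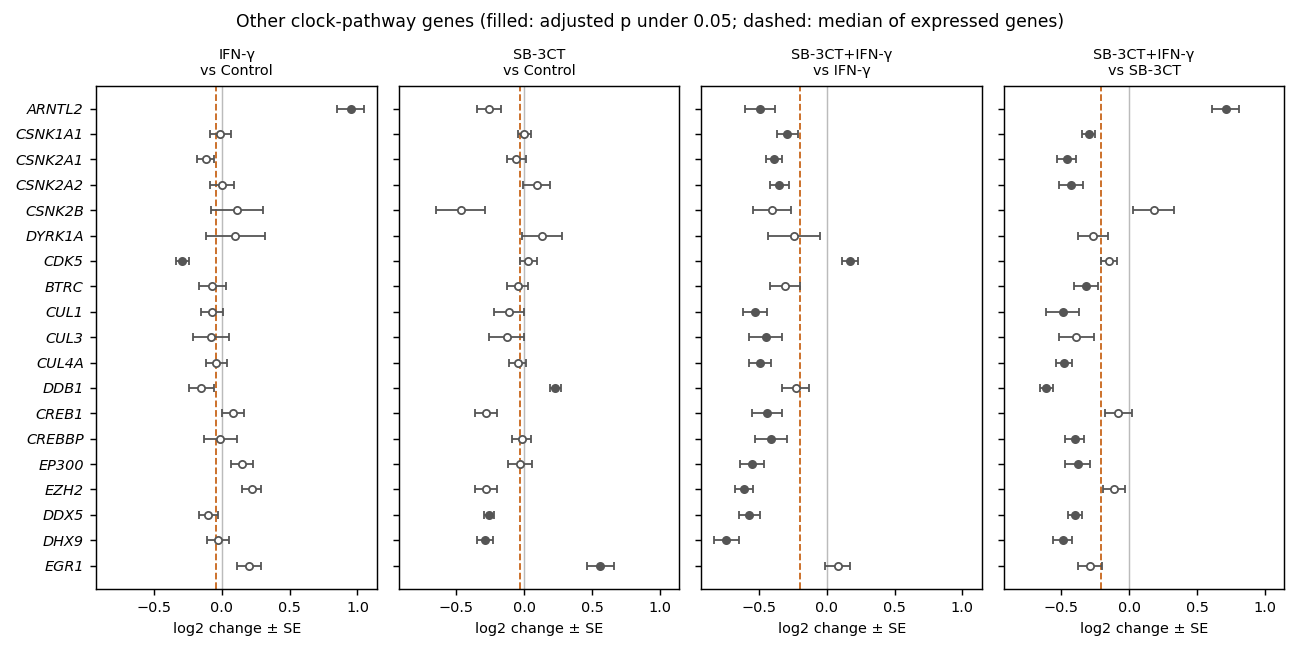
Change of the 19 other clock-pathway genes (y axis) on the log2(FPKM + 1) scale with its standard error (x axis) in the 4 comparisons, with filled points for an adjusted p-value under 0.05 in limma, a grey line at 0 and a dashed line at the median of genes with a mean of at least 1 FPKM. ARNTL2 stands furthest to the right in both IFN-γ comparisons (0.95 and 0.71), and most of the other genes lie left of the dashed line where SB-3CT was added to IFN-γ.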

How the data were processed

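RNA of A375 cells was sequenced as paired reads of 150 bases in 12 samples, 3 in each of 4 groups. Per the submitters' processing notes the tools were HISAT2 2.0.5 and StringTie 1.3.3, on hg19. The authors deposited one table of log2(FPKM + 1) values, with the unit read from its values and its name, and 4918 genes of it (A1BG to FAM46B) were analysed here. How fragments were counted by strand, and reads per sample, are not given in the sources used here, so the depth behind each value is known only relatively.

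Groups followed the labels, the columns named NC being taken as the control samples. Each comparison was fitted to its 6 samples, and the difference to all 12, with limma 3.58.1 in R 4.3.3 (lmFit, eBayes with trend) on the deposited values, with Benjamini-Hochberg adjustment over 4918 genes at 0.05. FPKM levels were back-transformed, with a pseudocount of 1. The test was checked on simulated data. Alternatives were a pseudocount of 0.1, a minimum mean of 1 FPKM, 3 other scalings (median-ratio, quantile, length trend removed), all 4 groups in one fit, a replicate block, a per-gene equal-variance test, a fold over 1.5 with an unadjusted p under 0.05, and each sample left out. Transcript lengths, from GENCODE 44 mapped to hg19, covered 99.1% of the genes, and promoters came from RefSeq (GRCh38.p14). A further promoter motif that was searched is not reported here.

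The clock genes and the gene lists were chosen with earlier results of these data known. All 10 clock genes are described. Of the other pathway genes, the 6 with the largest change past the threshold in any comparison were named, and the genes most alike were the 3 with the highest Pearson r. CDK5, CSNK2B, the ratios and the ROR element were chosen after values or sequences were seen. Replicate numbers were not taken as pairs in the main fits. The correlation of deviations between same-numbered samples was -0.39 to 0.17 over the comparisons. Differently numbered samples were not set beside it, so it cannot decide whether the numbers pair the samples.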

Additional observations from a re-analysis of the deposited data

Results flagged for a closer look

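In 3 of the clock genes the change with SB-3CT in the presence of IFN-γ differed from that in its absence, by the limma test of the difference over all 12 samples. The differences were -0.49 for CRY1 (SE 0.15, adjusted p = 0.0361), -0.47 for CSNK1D (SE 0.08, adjusted p = 0.00559) and -0.46 for DBP (SE 0.14, adjusted p = 0.0350). The median difference of genes with a mean of at least 1 FPKM was -0.19, and relative to it the values were -0.30, -0.28 and -0.27. CSNK1D passed in 18 of 18 alternative fits, DBP in 6 and CRY1 in 5. CSNK1D and DBP rose with SB-3CT alone and had negative values in its presence with IFN-γ (-0.19 and -0.07, neither past the threshold, and 0.04 and 0.12 after median-ratio scaling), whereas CRY1 was negative in both.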

How the results depend on the processing

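Of the 50 values for single clock genes (10 genes in 4 comparisons and the difference), 17 passed the test, and 7 of these kept an adjusted p-value under 0.05 in every alternative fit run for them, the fold rule being counted apart. These were BHLHE40 and BHLHE41 with IFN-γ, CLOCK and CRY1 for SB-3CT+IFN-γ against IFN-γ, BHLHE40 and CRY1 for SB-3CT+IFN-γ against SB-3CT, and the difference for CSNK1D. Of these, BHLHE41 with IFN-γ and CLOCK did not meet the fold rule, which was not run for the difference. Of the 33 that did not pass, 8 passed in some alternative fit. The scaling of the SB-3CT+IFN-γ samples, the small number of samples and unknown read numbers limit the other values, and the cause of the shifts was not tested.

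Counts of clock genes past the threshold moved as follows. With IFN-γ, 1 passed under the minimum mean of 1 FPKM, under which BHLHE41 is not tested, and 1 under the fold rule. With SB-3CT, 1 passed under the replicate block (CSNK1D), 0 under the equal-variance test and 0 under the fold rule (2 by limma and 4 at an unadjusted p under 0.05), and 0 to 3 with 1 sample left out, the 3 being without SB-3CT replicate 1. For SB-3CT+IFN-γ against IFN-γ, 1 passed under the fold rule. Against SB-3CT, 4 passed after median-ratio scaling, with the length trend removed and under the equal-variance test, 2 under the fold rule, and 3 to 6 with 1 sample left out. For the difference, 1 passed under the replicate block and 1 under each of the 3 other scalings, and 1 to 3 with 1 sample left out.

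Counts of the 19 other pathway genes moved likewise. With IFN-γ, 5 passed with the length trend removed, 1 under the fold rule and 1 to 3 with 1 sample left out. With SB-3CT, 0 passed under the fold rule and 0 to 7 with 1 sample left out. Against IFN-γ, 6 passed with the length trend removed, 2 under the fold rule and 8 to 14 with 1 sample left out. Against SB-3CT, 5 passed after median-ratio scaling, 6 after quantile normalization and 2 under the fold rule (9 to 14 with 1 sample left out). For the difference, 2 passed after median-ratio scaling, 0 with the length trend removed, 3 after quantile normalization and 4 to 12 with 1 sample left out.

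The sign turned in 20 of the 50 values, 2 of which had passed the test. Under median-ratio scaling, SB-3CT+IFN-γ against IFN-γ gave CRY2 0.13, CSNK1D 0.04 and DBP 0.12, against SB-3CT it gave ARNTL 0.08 and CSNK1E 0.09, and the difference gave ARNTL 0.13 and CSNK1E 0.05. Under quantile normalization, CRY2 was -0.02 with IFN-γ and BHLHE41 0.02 with SB-3CT. Against IFN-γ it gave ARNTL 0.12, CRY2 0.25, BHLHE40 0.03 and DBP 0.22, against SB-3CT ARNTL 0.08, and for the difference ARNTL 0.15 and CRY2 0.00. With the length trend removed, IFN-γ gave CLOCK -0.02, CRY2 -0.02 and CSNK1E -0.03, and SB-3CT gave BHLHE41 0.00. Against IFN-γ it gave CRY2 0.19, CSNK1D 0.10 and DBP 0.03, against SB-3CT ARNTL 0.03 and CSNK1E 0.00, and for the difference ARNTL 0.12 and CSNK1E 0.03. With a pseudocount of 0.1 the difference for ARNTL was 0.00.

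With 1 sample left out, the ranges that crossed 0 were, with IFN-γ, ARNTL -0.15 to 0.01, CRY2 -0.05 to 0.10 and CSNK1E -0.04 to 0.05, and with SB-3CT, BHLHE40 -0.07 to 0.06 and BHLHE41 -0.08 to 0.04. Against IFN-γ they were CRY2 -0.10 to 0.06, CIART -0.01 to 0.07, BHLHE41 -0.01 to 0.04 and CSNK1E 0.00 to 0.08, and against SB-3CT, ARNTL -0.20 to 0.11. For the difference they were ARNTL -0.14 to 0.18 and BHLHE41 -0.02 to 0.10. Whether the replicate numbers pair the samples is not known. The replicate block gave 2, 1, 2, 5 and 1 clock genes past the threshold in the 4 comparisons and the difference, beside 2, 2, 3, 7 and 3 without it.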
